A study of Saccharomyces cerevisiae with 10 samples.

Results

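The 10 genes described here encode the core translation elongation factors and the cap-binding complex of the budding yeast Saccharomyces cerevisiae. They were taken by name: TEF1, TEF2, EFT1, EFT2 and YEF3 for elongation, and TIF1, TIF2, TIF4631, CDC33 and PAB1 for the cap complex and the poly(A) tail. All 10 were found among the 6059 genes with counts, and all 10 were among the 6015 genes that passed the filter on low counts. Messenger RNA was sequenced in 10 libraries of 2 strains. XH7, the control strain, had 2 libraries labelled 30 °C and 2 libraries after 1 h of heat shock at 50 °C, and Z100, an adaptive strain evolved under mild heat, had 3 libraries of each kind. The protocol mentions an ice-water mixture for cultures without heat shock, so the labels do not settle the state in which the 30 °C cells were held. The labels name no gene that was altered in Z100 and do not say how it descends from XH7. They also do not say whether replicates were separate cultures, and the p-values below refer to the spread between libraries, part of which may be technical.

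During elongation, eEF1A carries each aminoacyl-tRNA to the ribosome as a complex with GTP, and eEF2 moves the ribosome by a codon along the messenger RNA. Fungi need a further factor, eEF3, an ATPase that helps to free the spent tRNA from the ribosome. At initiation, eIF4E binds the cap at the 5′ end of the messenger RNA, the scaffold eIF4G holds eIF4E together with the RNA helicase eIF4A, and the poly(A)-binding protein binds both the poly(A) tail and eIF4G. In yeast these messenger RNAs, like those of ribosomal proteins, are among the abundant transcripts of growing cells, and translation is known to be curtailed under severe heat stress.

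TEF1 and TEF2 both encode eEF1A, EFT1 and EFT2 both encode eEF2, and TIF1 and TIF2 both encode eIF4A. YEF3 encodes eEF3, TIF4631 encodes eIF4G1, CDC33 encodes eIF4E, and PAB1 encodes the poly(A)-binding protein. The positions in the tables equalled those of the R64 annotation for all 10. Each gene has 1 coding exon and overlaps no other annotated gene, and the gene models hold the coding part only. TEF1 (YPR080W) lies at chrXVI:700594-701970 on the plus strand, TEF2 (YBR118W) at chrII:477671-479047 on the plus strand, EFT1 (YOR133W) at chrXV:575098-577626 on the plus strand and EFT2 (YDR385W) at chrIV:1243230-1245758 on the plus strand. YEF3 (YLR249W) lies at chrXII:636780-639914 on the plus strand, TIF1 (YKR059W) at chrXI:554987-556174 on the plus strand and TIF2 (YJL138C) at chrX:153504-154691 on the minus strand. TIF4631 (YGR162W) lies at chrVII:824059-826917 on the plus strand, CDC33 (YOL139C) at chrXV:60383-61024 on the minus strand and PAB1 (YER165W) at chrV:510373-512106 on the plus strand.

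The 2 genes of each pair are nearly the same in their coding sequence, which limits what their separate counts can mean. Counted from the A of the start codon as position 1, TEF1 and TEF2 differ by T762C and T834C in 1377 bases. EFT1 and EFT2 differ by A447G, C882T, C2145T and C2364T in 2529 bases. TIF1 and TIF2 differ by T60C, C225T, T228C, C873T, C1170T and T1176C in 1188 bases. All 12 differences fall on the third base of a codon and are silent, so that the predicted proteins of each pair are identical, with 458 residues for eEF1A, 842 for eEF2 and 395 for eIF4A. The stretches below, from the R64 reference and written 5′ to 3′ on the coding strand, show some of the sites that can tell the copies apart, with the differing bases in capitals: both sites of eEF1A, 1 of the 4 of eEF2 and 2 of the 6 of eIF4A. They span coding bases 753 to 843 of eEF1A, 427 to 467 of eEF2 and 206 to 247 of eIF4A.
TEF1, chrXVI:701346-701436, plus strand: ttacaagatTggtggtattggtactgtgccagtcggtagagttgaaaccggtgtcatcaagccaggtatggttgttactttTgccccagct
TEF2, chrII:478423-478513, plus strand: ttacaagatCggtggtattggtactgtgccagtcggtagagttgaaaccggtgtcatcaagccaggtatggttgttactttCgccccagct
EFT1, chrXV:575524-575564, plus strand: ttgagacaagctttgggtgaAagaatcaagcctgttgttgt
EFT2, chrIV:1243656-1243696, plus strand: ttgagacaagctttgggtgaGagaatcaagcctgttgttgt
TIF1, chrXI:555192-555233, plus strand: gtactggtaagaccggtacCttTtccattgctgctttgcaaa
TIF2, chrX:154445-154486, minus strand: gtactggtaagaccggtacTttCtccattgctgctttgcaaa

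Of all windows of 100 bases within the coding sequence, 86.5% were the same in TEF1 and TEF2, 83.5% in EFT1 and EFT2, and 74.1% in TIF1 and TIF2. With windows of 150 bases the shares were 81.9%, 74.8% and 63.2%. Most single reads of these lengths from within the coding sequence can therefore come from either copy. Longer or paired reads would meet a differing base more often. How the authors' counting divided shared reads is not given in the sources used here. Values of single copies are uncertain for this reason, and the sum of each pair is given beside them. The 300 bases upstream of the start codon were far less alike, with an identity of 55.7% for TEF1 and TEF2, 50.7% for EFT1 and EFT2 and 47.7% for TIF1 and TIF2.

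The upstream sequences of most of these genes hold the letters AAAATTTT, the core of the ribosomal RNA processing element (RRPE), which is best known from genes of ribosome synthesis. In the 500 bases before the start codon this palindrome occurred in 8 of the 10 genes, and in 12.8% of 5595 protein-coding genes and 12.9% of 124 ribosomal protein genes searched in the same way. TEF2 and TIF2 had no match in this window. The match nearest the start codon is shown for each of the 8 genes, in 30 bases of the coding strand with the motif in capitals.
TEF1, chrXVI:700406-700435, plus strand: tctttttcttgAAAATTTTtttttttgatt
EFT1, chrXV:574941-574970, plus strand: atctcacctagAAAATTTTtttttgccatg
EFT2, chrIV:1243049-1243078, plus strand: gaagagagaaaAAAATTTTttcttaaaagt
YEF3, chrXII:636663-636692, plus strand: ccttttgcatcAAAATTTTgtagaatatct
TIF1, chrXI:554793-554822, plus strand: atagtgactgaAAAATTTTtgcattctcac
TIF4631, chrVII:823835-823864, plus strand: ttttttcaagaAAAATTTTcgatgccgcgt
CDC33, chrXV:61192-61221, minus strand: tctccgaaaagAAAATTTTtttcgtcgtca
PAB1, chrV:510040-510069, plus strand: tttttacaaagAAAATTTTttttgcgcttt

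TEF2 alone among the 10 held a match to ACCCNNACA, letters bound by Rap1, the main activator of ribosomal protein genes. It is shown with the motif in capitals because 39.5% of ribosomal protein genes but 5.43% of all genes had a match on either strand.
TEF2, chrII:477225-477254, plus strand: attcatgttgcACCCACACAtttatacacc
Other motifs were searched on both strands in the same window. The stress response element AGGGG was found in TEF1, EFT1, YEF3 and CDC33, and in 34.3% of all genes. Of the paired repeats of heat shock elements, GAANNTTC was found in EFT1 alone of the 10 and in 19.1% of all genes. TTCNNGAA was found in TEF1, YEF3 and TIF4631 and in 21.2% of all genes. In TEF1 and TIF4631 the last bases of TTCNNGAA are the first bases of an AAAATTTT match. GATGAG, the core of the PAC element, was found in YEF3, TIF2, TIF4631 and CDC33 and in 27.9% of all genes. A match is a description of these letters and does not show binding.

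The libraries held between 51901045 and 81442848 counts, and every pair of replicates differed by more than counting noise. Together the 10 genes took 3.58% and 3.16% of all counts in the XH7 libraries at 30 °C and 4.36%, 5.81% and 4.78% in those of Z100. After heat shock they took 1.30% and 0.954% in XH7 and 1.27%, 1.23% and 1.14% in Z100. The share of the 10 genes was lower in all 5 heat-shocked libraries than in any library at 30 °C.

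The levels of different genes were compared per coding length as deposited FPKM, counts scaled to gene length and library size, with each pair summed. At 30 °C the eEF1A pair was highest, at 14040.5 and 12079 FPKM in XH7 and 19397, 27297 and 21868 FPKM in Z100. The eEF2 pair followed, at 3071 and 2691 FPKM in XH7 and 3553, 5294 and 3983 FPKM in Z100. YEF3 ranked 3 among the 7 in every 30 °C library, with 1607 and 1483 FPKM in XH7 and 1509, 1333 and 1458 FPKM in Z100.

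The eIF4A pair ranked 4 in every 30 °C library, at 1339 to 1505 FPKM in XH7 and 979.9 to 1383 FPKM in Z100, and its ranges overlapped those of YEF3 in both strains. CDC33 ranked 5 in XH7, at 763 and 709 FPKM, and 6 in Z100, at 493, 441 and 493 FPKM. PAB1 held the other of these 2 ranks, at 506 and 517 FPKM in XH7 and 514, 694 and 495 FPKM in Z100. TIF4631 was lowest of the 7 in every library, at 158 and 161 FPKM in XH7 and 98.6, 86.0 and 103 FPKM in Z100. Except for YEF3 and the eIF4A pair, neighbours in this order did not overlap between libraries of a group at 30 °C.

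**Figure D1:**
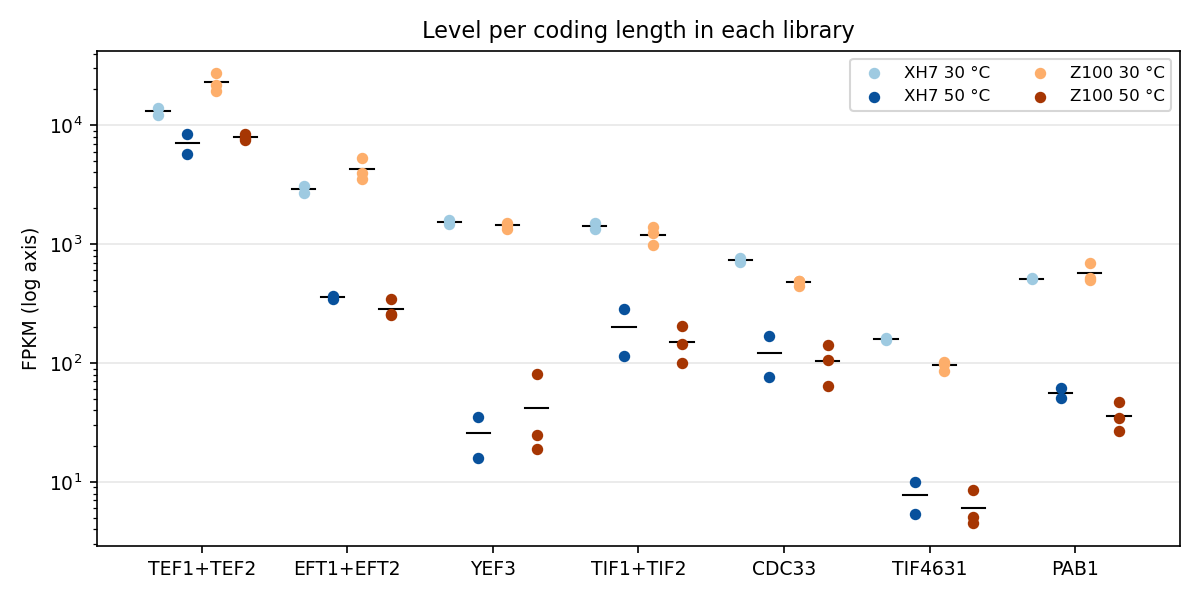
Deposited FPKM of the 3 summed pairs and the 4 single genes in each of the 10 libraries, on a log axis, with points for libraries and black bars for group means. The eEF1A pair stays highest in all libraries, and YEF3 moves from rank 3 at 30 °C to rank 5 or 6 at 50 °C.

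After heat shock the order changed mainly at YEF3. Its level per length was 15.9 and 35.5 FPKM in XH7 and 25.003, 81.0 and 19.0 FPKM in Z100, which was rank 6 in 4 of the 5 libraries and rank 5 in Z100 replicate 2. The eEF1A pair was still highest, at 8494 and 5749.6 FPKM in XH7 and 8483, 7770.5 and 7547 FPKM in Z100. The eEF2 pair kept rank 2, at 345 and 369 FPKM in XH7 and 256, 345 and 258 FPKM in Z100.

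The eIF4A pair ranked 3 at 50 °C, with 114 and 285 FPKM in XH7 and 99.5, 206 and 143 FPKM in Z100. CDC33 ranked 4, at 76.9 and 168 FPKM in XH7 and 64.2, 143 and 106 FPKM in Z100, and overlapped the eIF4A pair in both strains. PAB1 had 62.2 and 50.6 FPKM in XH7 and 34.2, 47.3 and 26.7 FPKM in Z100, and overlapped YEF3 in Z100. In Z100 the ranges of CDC33 and YEF3 overlapped as well. TIF4631 remained lowest, at 5.42 and 10.1 FPKM in XH7 and 4.51, 8.62 and 5.10 FPKM in Z100.

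The ratios of FPKM within a library do not depend on how libraries are scaled to each other. The eEF1A pair stood at 4.57 and 4.49 times the eEF2 pair in XH7 at 30 °C and at 5.46, 5.16 and 5.49 times in Z100. After heat shock this ratio was 24.6 and 15.6 in XH7 and 33.2, 22.5 and 29.3 in Z100. Every heat-shocked library lay above every library at 30 °C.

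Relative to YEF3, the eEF1A pair stood at 8.74 and 8.15 times in XH7 and 12.9, 20.5 and 15.0 times in Z100 at 30 °C. After heat shock the ratio was 533 and 162 in XH7 and 339, 95.9 and 396 in Z100. The heat-shocked XH7 libraries differed by more than 3-fold from each other, Z100 replicate 2 lay more than 3-fold below the other 2 Z100 libraries, and all 5 lay above the highest value at 30 °C. The eEF2 pair stood at 1.81 to 3.97 times YEF3 over the 5 libraries at 30 °C and at 4.26 to 21.6 times over the 5 at 50 °C.

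Within the cap complex, the eIF4A pair stood at 9.55 and 8.31 times TIF4631 in XH7 and 14.03, 11.4 and 12.2 times in Z100 at 30 °C. After heat shock the ratio was 20.9 and 28.4 in XH7 and 22.1, 23.9 and 28.1 in Z100. The ratio of eIF4E to eIF4G1 messages, CDC33 to TIF4631, was 4.40 to 5.13 over the 5 libraries at 30 °C and 14.2 to 20.8 over the 5 at 50 °C. Both ratios were thus higher in every heat-shocked library than in every library at 30 °C. The eIF4A pair stood at 1.89 to 2.81 times CDC33 over the 5 libraries at 30 °C and at 1.35 to 1.70 times over the 5 at 50 °C. That ratio was lower in every heat-shocked library.

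**Figure D2:**
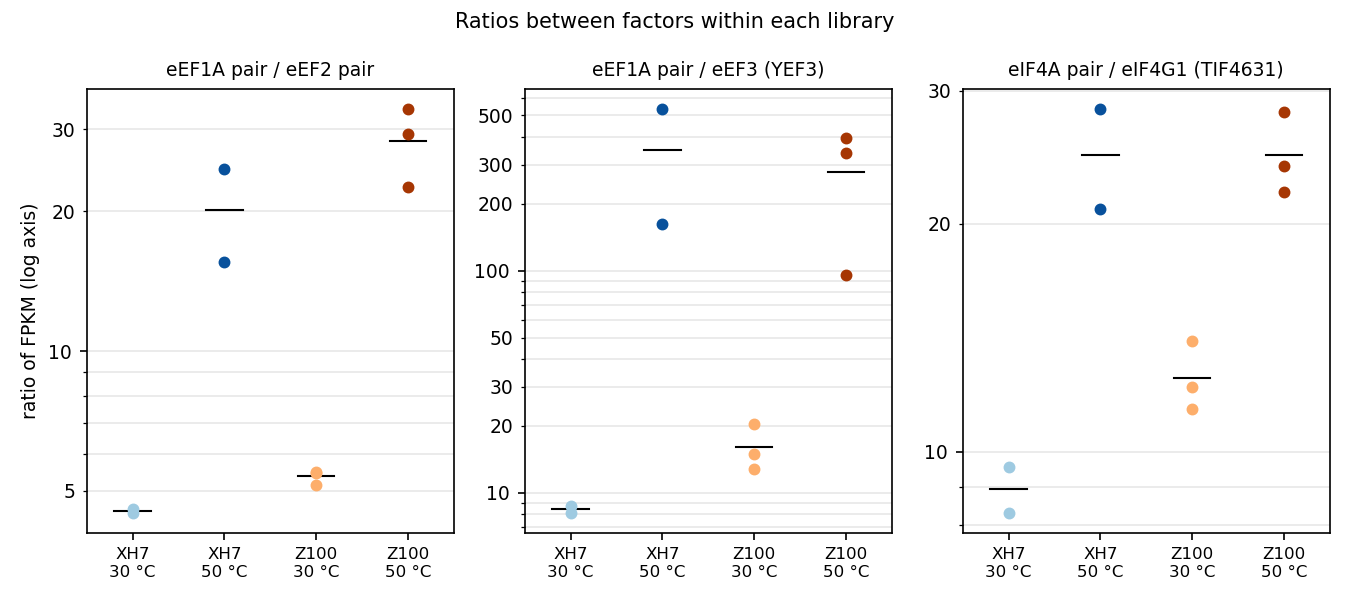
Ratios of deposited FPKM within each library for 3 combinations of factors, on log axes, with points for libraries and black bars for group means. In all 3 panels each heat-shocked library lies above each 30 °C library, and the eEF1A to eEF3 ratio runs from 8.15 to 20.5 at 30 °C and from 95.9 to 533 at 50 °C.

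The response of each strain to heat was tested with edgeR on the counts, with library scaling by TMM. Levels within a gene are given as CPM, that is counts scaled by the library total times its TMM factor. These factors ran from 0.678 (Z100 replicate 1 at 50 °C) to 1.37 (XH7 replicate 2 at 30 °C). Every factor at 50 °C lay below every factor at 30 °C, so CPM fell less with heat than plain shares of the counts. In XH7, 8 of the 10 genes fell (adjusted p under 0.05), against 32.0% of all genes tested that were called lower and 31.3% that were called higher. EFT1, EFT2, YEF3, TIF1, TIF2, TIF4631, CDC33 and PAB1 passed the test and TEF1 and TEF2 did not. In Z100 all 10 fell, against 36.2% of all genes tested that were called lower and 33.8% that were called higher. In CPM the groups did not overlap, with lower values after heat shock, for the same 8 genes in XH7 and for all 10 in Z100. This was so for 41.9% and 38.8% of all genes tested. The median log2 fold change of the 10 genes was -2.38 in XH7 and -2.88 in Z100, beside 0.01 and -0.05 over all genes tested. In bulk RNA, fewer messages per cell and a change in the make-up of the culture cannot be told apart.

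The genes of eEF1A changed least. TEF1 stood at 10301 and 7932 CPM in XH7 at 30 °C and at 9543 and 4917 CPM after heat shock. TEF2 stood at 5352 and 4189 CPM and then at 5690.3 and 2883 CPM. For both genes the groups overlapped in CPM, because XH7 replicate 1 at 50 °C lay within or above the 30 °C values. In deposited FPKM, which hold no TMM factor, the groups were separate. TEF1 stood there at 9240 and 7904 FPKM and then at 5321 and 3625 FPKM. TEF2 stood at 4801 and 4175 FPKM and then at 3173 and 2125 FPKM. The log2 fold change was -0.33 ± 0.37 (SE, adjusted p = 0.454, 95% interval -1.17 to 0.50) for TEF1 and -0.15 ± 0.36 (adjusted p = 0.725, 95% interval -0.96 to 0.65) for TEF2, and the summed pair gave -0.27 (adjusted p = 0.547). Of these 2 intervals only that of TEF1 reaches below -1 on the log2 scale, and that of the summed pair, from -1.11 to 0.56, does so as well.

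In Z100, TEF1 stood at 13841, 23486 and 16295 CPM at 30 °C and at 10954, 8123 and 8357 CPM after heat shock. TEF2 stood at 7257, 11521 and 8219 CPM and then at 6327, 4628 and 4869 CPM. The groups did not overlap for either gene. The log2 fold change was -0.97 ± 0.31 for TEF1 (adjusted p = 0.0167) and -0.77 ± 0.30 for TEF2 (adjusted p = 0.0391). The summed pair gave -0.90 (adjusted p = 0.0237).

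The eEF1A values depended on scaling and on single libraries. By library size alone, TEF1 fell in XH7 by 0.94 on the log2 scale (adjusted p = 0.00981) and TEF2 by 0.76 (adjusted p = 0.0225), where the median of all genes also moved by -0.55, so that relative to it the values were -0.39 and -0.21. In Z100 the call for TEF1 was lost without Z100 replicate 2 at 30 °C, without replicate 2 or replicate 3 at 50 °C, and with reference-gene scaling, with adjusted p up to 0.0665. The call for TEF2 was lost without either XH7 replicate at 30 °C, without Z100 replicate 2 or 3 at either temperature, and with RLE or reference-gene scaling, with adjusted p up to 0.142.

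The genes of eEF2 fell in both strains. EFT1 stood at 2935 and 2274 CPM in XH7 at 30 °C and at 549 and 444 CPM after heat shock. Its values in Z100 were 3522, 5945 and 4006 CPM and then 463, 499 and 396 CPM. The groups were separate in both strains, and the log2 fold change of EFT1 was -2.39 ± 0.30 (adjusted p = 8.02e-05) in XH7 and -3.31 ± 0.26 (adjusted p = 2.1e-06) in Z100. EFT2 gave -2.51 ± 0.32 and -3.28 ± 0.27, and the summed pair gave -2.45 and -3.30.

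YEF3, the gene of eEF3, had the largest estimated fall of the 10 in both strains. It stood at 4079 and 3388 CPM in XH7 at 30 °C and at 65.0 and 109.6 CPM after heat shock. The Z100 libraries gave 3736, 3892 and 3722 CPM and then 116, 303 and 76.0 CPM. The 30 °C libraries were close to each other, whereas Z100 replicate 2 at 50 °C was clearly above the other heat-shocked libraries. The log2 fold change was -5.42 ± 0.64 (adjusted p = 5.19e-05) in XH7 and -4.52 ± 0.50 (adjusted p = 2.11e-05) in Z100. Only 0.914% of all genes tested had a lower log2 fold change in XH7 and 0.565% in Z100.

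The genes of eIF4A fell to a similar degree in both strains. TIF1 stood at 736 and 588 CPM in XH7 at 30 °C and at 82.6 and 175 CPM after heat shock. In the Z100 strain it stood at 651, 548 and 590.0 CPM and then at 80.6, 139 and 103 CPM. No heat-shocked library reached the 30 °C values, and the log2 fold change was -2.36 ± 0.37 (adjusted p = 0.000298) in XH7 and -2.47 ± 0.30 (adjusted p = 4.12e-05) in Z100. TIF2 gave -2.35 ± 0.31 and -2.32 ± 0.26.

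TIF4631, which encodes the main form of the scaffold eIF4G, had the largest estimated fall of the cap complex genes in XH7, and in Z100 its estimate was close to that of PAB1. It stood at 365 and 336 CPM in XH7 at 30 °C and at 20.2 and 28.3 CPM after heat shock. In Z100 it stood at 223, 229 and 239 CPM and then at 19.1, 29.4 and 18.6 CPM. Replicates were close together and the groups far apart, with a log2 fold change of -3.85 ± 0.28 (adjusted p = 3.21e-06) in XH7 and -3.36 ± 0.22 (adjusted p = 7.84e-07) in Z100.

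CDC33, the gene of the cap-binding protein eIF4E, fell less. It stood at 397 and 332 CPM in XH7 at 30 °C and at 64.3 and 106 CPM after heat shock. Its values in Z100 were 250.0, 264 and 258 CPM and then 61.0, 109 and 86.6 CPM. The groups were separate in both strains, and the log2 fold change was -2.09 ± 0.31 (adjusted p = 0.0002) in XH7 and -1.59 ± 0.25 (adjusted p = 0.000219) in Z100. Of the 8 genes called in XH7 its estimate was the smallest, and in Z100 only TEF1 and TEF2 had smaller ones.

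PAB1, whose protein coats the poly(A) tail, stood at 711 and 653 CPM in XH7 at 30 °C and at 141 and 86.4 CPM after heat shock. The Z100 libraries gave 704, 1121 and 699 CPM and then 87.7, 97.7 and 58.9 CPM. Z100 replicate 2 at 30 °C lay well above the other libraries, and the groups did not overlap in either strain. The log2 fold change was -2.59 ± 0.36 (adjusted p = 0.000131) in XH7 and -3.37 ± 0.30 (adjusted p = 4.94e-06) in Z100.

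**Figure D3:**
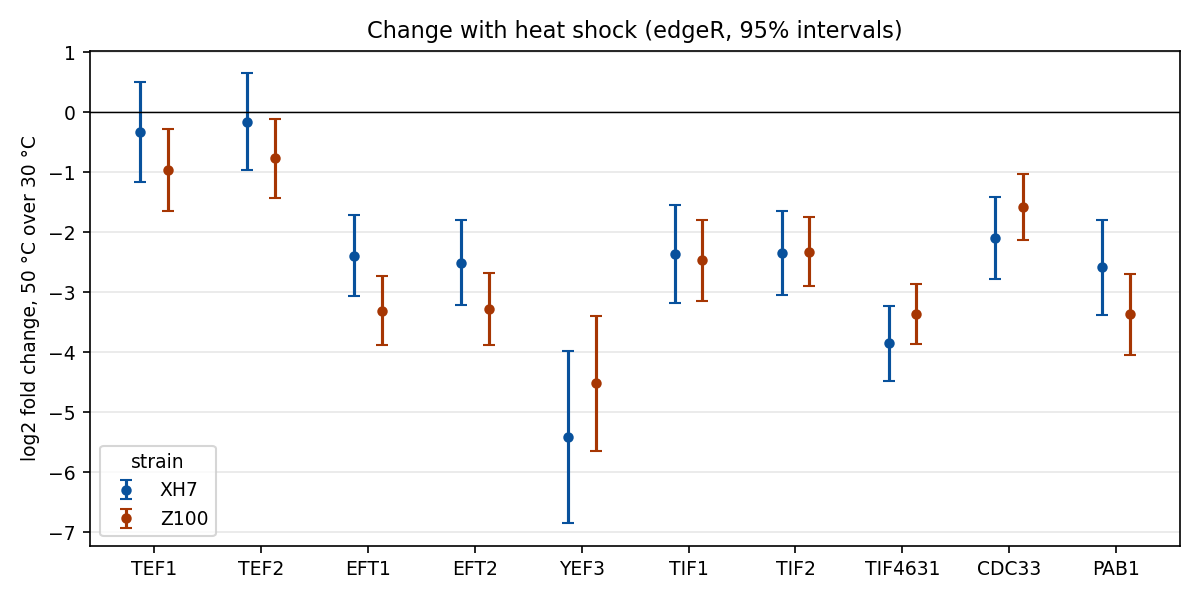
Log2 fold change of heat shock over 30 °C for the 10 genes in XH7 and Z100, from edgeR, with points for the estimates and bars for 95% intervals. TEF1 and TEF2 lie nearest to 0 and YEF3 lies lowest, at -5.42 in XH7 and -4.52 in Z100.

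The strains were then compared at each temperature. At 30 °C none of the 10 genes passed the test, against 28.4% of all genes tested that were called in either direction. Unadjusted p in edgeR was under 0.05 for 5 of the 10, a count for which the share of all genes is not given here. DESeq2 called 4 of these 5, where it called 1136 of all 6059 genes higher and 973 lower. The 4 genes of eEF1A and eEF2 were higher in every Z100 library than in every XH7 library, and TIF4631 and CDC33 were lower. A gap of this kind was found in 31.8% of all genes towards higher and in 40.5% towards lower values in Z100. The estimates were 0.97 ± 0.35 for TEF1 (adjusted p = 0.0626), 0.92 ± 0.34 for TEF2 (adjusted p = 0.0679), 0.79 ± 0.27 for EFT1 (adjusted p = 0.0533) and 0.66 ± 0.28 for EFT2 (adjusted p = 0.104). DESeq2 called these 4 higher.

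TIF4631 differed between the strains at 30 °C by -0.61 ± 0.23 (adjusted p = 0.0696) and CDC33 by -0.50 ± 0.27 (adjusted p = 0.178). With the XH7 and Z100 libraries at 30 °C fitted alone, TEF1, TEF2 and EFT1 were called higher and TIF4631 and CDC33 lower. The same fit called 1551 genes higher and 1604 lower of all 5979 tested. Calls were thus common among all genes in that fit, and these calls do not set the members apart. YEF3, TIF1, TIF2 and PAB1, the remaining 4 genes, overlapped between the strains. Their log2 differences and 95% intervals were 0.02 (-1.06 to 1.10) for YEF3, -0.15 (-0.86 to 0.56) for TIF1, -0.10 (-0.70 to 0.51) for TIF2 and 0.30 (-0.38 to 0.99) for PAB1.

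At 50 °C none of the 10 genes passed the test, against 8.96% of all genes tested. No member had an unadjusted p under 0.05, and all 10 overlapped between the strains, where 18.4% of all genes tested lay apart with lower and 18.0% with higher values in Z100. The largest estimate was that of YEF3, 0.92 with a 95% interval of -0.20 to 2.03 (adjusted p = 0.276). PAB1 gave -0.48 with an interval of -1.16 to 0.20 (adjusted p = 0.348), and the smallest was CDC33 at 0.01 with an interval of -0.59 to 0.61. These intervals leave room for differences of 1.5-fold in either direction for CDC33. For YEF3 they leave room for more than that, but only towards higher values in Z100.

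The difference between the heat responses of the 2 strains was tested as an interaction. None of the 10 genes passed, against 4.27% of all genes tested, and EFT1 was the single one with an unadjusted p under 0.05. Its log2 response was lower in Z100 than in XH7 by 0.92, estimated as -0.92 ± 0.37 (adjusted p = 0.171, 95% interval -1.75 to -0.08). For TEF1, a call in Z100 beside none in XH7 does not show a difference, since its interaction was -0.63 ± 0.48 (adjusted p = 0.442). For TEF2 it was -0.62 ± 0.47 (adjusted p = 0.44).

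The division of counts within each pair was compared as a share, for which the scaling of libraries does not matter. TEF1 took 65.8% and 65.4% of the counts of its pair in XH7 and 65.6%, 67.1% and 66.5% in Z100 at 30 °C. After heat shock it took 62.6% and 63.0% in XH7 and 63.4%, 63.7% and 63.2% in Z100. All 5 heat-shocked libraries lay below all 5 at 30 °C. The difference of -2.87 percentage points, averaged over the strains, had p = 0.0167 in a two-sided exact permutation test within strains, the smallest p that the design allows, and 0.1 after Benjamini-Hochberg adjustment over 6 such tests.

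EFT1 took 46.7% and 45.9% of its pair in XH7 and 49.6%, 47.7% and 48.9% in Z100 at 30 °C, and 47.7% to 48.4% over the 5 heat-shocked libraries. TIF1 took 48.9% to 50.9% at 30 °C and 46.1% to 52.3% at 50 °C. Neither share passed the exact permutation test for heat (0.656 percentage points with p = 0.333 for EFT1, and -1.91 with p = 0.117 for TIF1). Differences between the strains were 0.674 percentage points for TEF1 (p = 0.06), 1.09 for EFT1 (p = 0.17) and -1.72 for TIF1 (p = 0.12) in the same exact test within temperatures, all 0.18 or more after adjustment. Whether the handling of reads common to both copies moved with temperature was not tested.

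**Figure D4:**
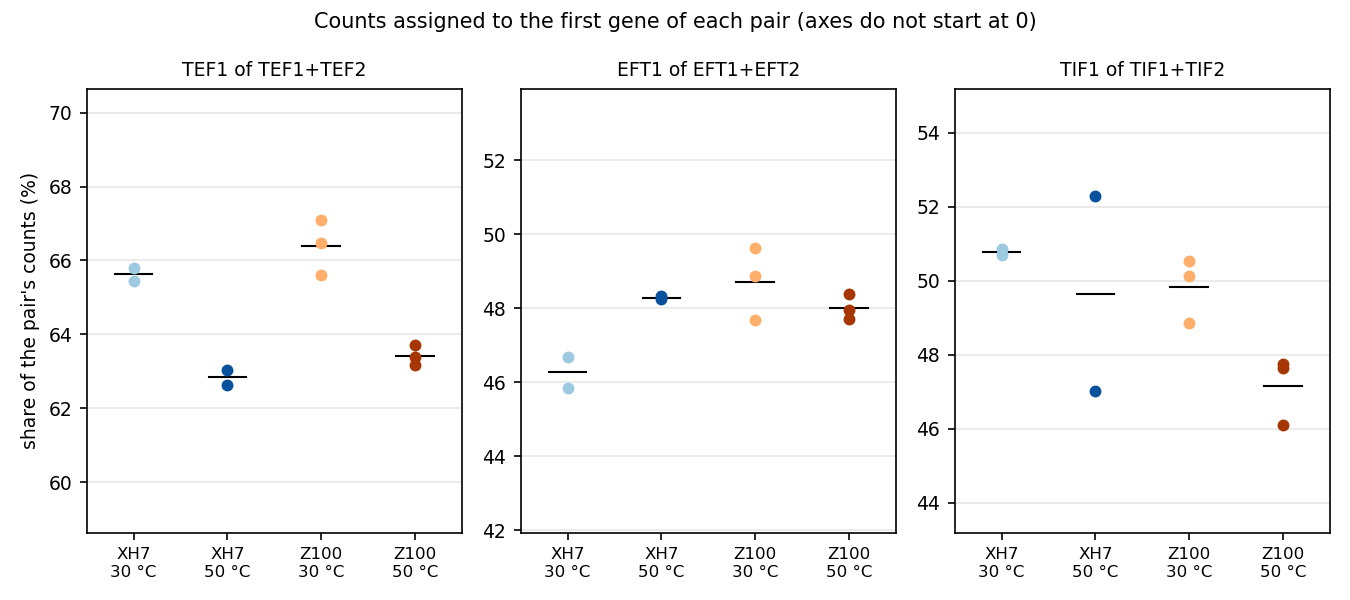
Share of the counts of each pair that was assigned to its first gene, in percent, in each of the 10 libraries, with points for libraries and black bars for group means and axes that do not start at 0. The TEF1 share runs from 65.4% to 67.1% at 30 °C and from 62.6% to 63.7% at 50 °C, without overlap.

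Related genes outside the 10 were followed as well. HEF3, a paralog of YEF3 with 74.8% identity of coding sequence, was expressed at a low level, at 6.36 and 5.94 CPM in XH7 and 8.07, 8.59 and 6.82 CPM in Z100 at 30 °C. After heat shock it stood at 7.87 and 5.02 CPM in XH7 and 9.41, 6.26 and 7.02 CPM in Z100. The groups overlapped in both strains, with log2 fold changes of 0.07 ± 0.29 (adjusted p = 0.853) and -0.05 ± 0.24 (adjusted p = 0.863), whose signs turned under other scalings. By library size alone HEF3 was called lower in Z100, at -0.70 (adjusted p = 0.00906), where the median of all genes moved by -0.63.

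TIF4632, which encodes the second form of eIF4G and shares 71.4% identity with TIF4631 over 1367 aligned bases, stood at 93.2 and 106 CPM in XH7 at 30 °C and at 39.5 and 51.0 CPM after heat shock. In the Z100 strain it stood at 56.6, 86.5 and 71.3 CPM and then at 34.5, 40.4 and 37.7 CPM. It fell in both strains, by 1.14 (SE 0.22, adjusted p = 0.0013) and by 0.93 (SE 0.18, adjusted p = 0.00102) on the log2 scale. The fold change of TIF4631 was larger in both strains; that difference between the paralogs was not tested.

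The guanine nucleotide exchange factor eEF1B reloads eEF1A with GTP, and its subunits did not move together. EFB1, its catalytic subunit, stood at 797 and 797 CPM in XH7 at 30 °C and at 1172 and 2173 CPM after heat shock. In Z100 it stood at 611, 640.1 and 497 CPM and then at 1562, 1591 and 1568 CPM. It rose in both strains without overlap, by 1.07 ± 0.28 (adjusted p = 0.00755) in XH7 and 1.43 ± 0.23 (adjusted p = 0.000293) in Z100 on the log2 scale. In XH7 the call was lost by library size alone, with adjusted p = 0.182 as the highest over the alternatives, and in a fit of the XH7 libraries alone. EFB1 overlaps the small nucleolar RNA gene snR18, and reads of the 2 cannot be told apart in these unstranded libraries.

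TEF4, a gene of the gamma subunit of eEF1B, fell by 2.99 (SE 0.41, adjusted p = 0.000119) in XH7 and fell by 3.28 (SE 0.34, adjusted p = 1.18e-05) in Z100. Its paralog CAM1 shares 78.2% identity with TEF4 over 719 aligned bases. CAM1 did not pass the test with heat, at 0.65 ± 0.39 (adjusted p = 0.164) in XH7 and -0.35 ± 0.31 (adjusted p = 0.345) in Z100. CAM1 was higher in Z100 than in XH7 at 30 °C by 1.30 ± 0.37 (adjusted p = 0.0271), a call that was lost without either XH7 replicate or without Z100 replicate 2 or 3 at 30 °C.

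HYP2 and ANB1 encode the 2 forms of eIF5A, a factor that helps the ribosome through difficult peptide bonds, and share 91.1% identity. ANB1 is known as the form expressed when oxygen is scarce. ANB1 stood at 79.2 and 64.2 CPM in XH7 at 30 °C and at 8.57, 10.8 and 10.5 CPM in Z100, a difference of -2.85 ± 0.25 (adjusted p = 0.00014). After heat shock it stood at 7.98 and 14.7 CPM in XH7 and 6.29, 6.30 and 6.44 CPM in Z100. It fell with heat in XH7 by 2.66 (SE 0.29, adjusted p = 2.85e-05) and fell in Z100 by 0.65 (SE 0.22, adjusted p = 0.0239), on the log2 scale. The call in Z100 was lost with limma-voom and without replicate 2 or 3 at either temperature in that strain.

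HYP2 was far more abundant than ANB1, at 1751 to 2487 CPM over the libraries at 30 °C and 849.7 to 1617 CPM over those at 50 °C. It fell in XH7 by 0.95 (SE 0.29, adjusted p = 0.0164) and gave -0.42 ± 0.24 (adjusted p = 0.137) in Z100. The call in XH7 was lost without replicate 1 at either temperature and when the XH7 libraries were fitted alone.

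Other groups of translation genes were counted in the same way, and each count is to be read against the shares of all genes tested, 32.0% lower and 31.3% higher in XH7 and 36.2% lower and 33.8% higher in Z100. Of 18 initiation factors outside the cap complex, 16 fell and 0 rose in XH7 and 17 fell and 0 rose in Z100, with median log2 fold changes of -2.43 and -1.88. FUN12, the gene of eIF5B, which joins the ribosomal subunits, fell by 4.20 (SE 0.39, adjusted p = 1.28e-05) in XH7 and fell by 3.84 (SE 0.31, adjusted p = 2.83e-06) in Z100. GCD2, a subunit of the exchange factor eIF2B, fell by 3.17 (SE 0.26) and fell by 2.79 (SE 0.21).

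All 21 cytosolic aminoacyl-tRNA synthetase genes, whose products charge the tRNAs that eEF1A carries, fell in both strains, with medians of -2.77 and -2.55. YHR020W had the largest fall of the 21 in both, at -4.09 and -4.34. Of 135 cytosolic ribosomal protein genes, 134 fell and 1 rose in XH7 and 132 fell and 1 rose in Z100, with medians of -3.10 and -2.94. Several of these genes have near-identical copies, so that single values are less certain than the counts.

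Among 8 termination and recycling factors, 7 fell in XH7 and 6 in Z100 and 0 rose, with medians of -1.31 and -0.997. SUP45, the release factor eRF1, fell by 3.75 (SE 0.51) and fell by 2.77 (SE 0.40), and RLI1, the ATPase that splits ribosomes, fell by 3.60 (SE 0.44) and fell by 3.51 (SE 0.36). Of 14 genes for the modification of elongation factors, 13 fell in XH7 and 10 in Z100 and 0 rose, with medians of -1.58 and -0.99. EFM2, a methyltransferase of eEF2, fell by 4.40 (SE 0.40) and fell by 3.75 (SE 0.32). DPH2, required for the diphthamide residue of eEF2, fell by 2.94 (SE 0.35, adjusted p = 3.61e-05) in Z100.

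The other elongation factors and the partners of the cap complex held genes called in both directions. Of 9 other elongation factors and ribosome-bound partners, among them STM1, a factor of dormant ribosomes, and GCN20, a regulator of the Gcn2 kinase, 6 fell and 1 rose in XH7 and 5 fell and 1 rose in Z100, with medians of -1.65 and -0.65. The one that rose was EFB1 in each strain, and NEW1, an ATPase related to eEF3, fell by 4.13 (SE 0.47) and fell by 3.02 (SE 0.36). Of 7 partners of the cap complex, 3 fell and 1 rose in XH7 and 4 fell and 2 rose in Z100, with medians of -0.44 and -0.93. With 7 genes these counts lie too near the shares of all genes to be a result about the group.

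TIF3, the gene of eIF4B, which assists eIF4A, fell by 3.54 (SE 0.46) in XH7 and fell by 3.18 (SE 0.37) in Z100. CAF20, a protein that competes with eIF4G for eIF4E, fell by 1.56 (SE 0.34) and fell by 1.65 (SE 0.28). SBP1, an RNA-binding repressor that contacts eIF4G, rose by 0.74 (SE 0.21, adjusted p = 0.0117) and by 1.19 (SE 0.18, adjusted p = 0.000151), and DED1, an RNA helicase of initiation, rose in Z100 by 0.87 (SE 0.23, adjusted p = 0.00603). These rises of SBP1 and DED1 were lost by library size alone, and that of SBP1 in XH7 also without XH7 replicate 2 at 30 °C and in a fit of the XH7 libraries alone.

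Of 15 factors of the poly(A) tail and of messenger RNA decay, which act on the tails that Pab1 covers, 4 fell and 2 rose in XH7 and 2 fell and 6 rose in Z100, with medians of 0.04 and -0.05. The 4 falls in XH7 and the 6 rises in Z100 lie near the shares of all genes, so that these 2 counts say nothing particular about the group. DHH1, an RNA helicase of decapping, rose by 2.17 (SE 0.17, adjusted p = 4.73e-06) in XH7 and by 2.58 (SE 0.14, adjusted p = 2.61e-07) in Z100. PAN2, a subunit of a poly(A) nuclease, rose by 0.91 (SE 0.17, adjusted p = 0.00108) and by 1.51 (SE 0.14, adjusted p = 7.74e-06), the former lost by library size alone. LSM1, of the decapping activator ring, fell by 1.65 (SE 0.37) and fell by 0.92 (SE 0.30), the latter lost without Z100 replicate 1 at 50 °C.

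**Figure D5:**
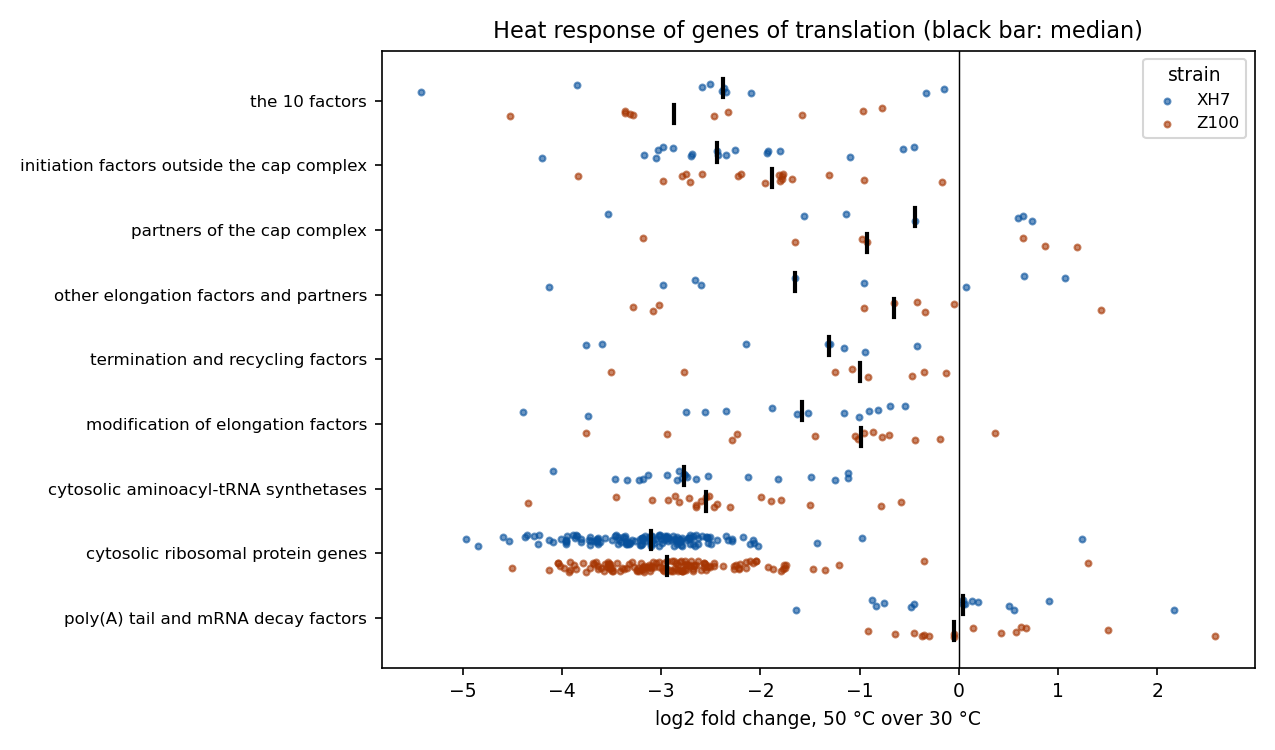
Log2 fold change of heat shock over 30 °C for the 10 genes and for 8 other groups of translation and messenger RNA decay genes, with a point for each gene and strain and black bars for medians. The poly(A) tail and decay group has its median near 0 in both strains, while the synthetase and ribosomal protein groups lie almost wholly below 0.

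At 30 °C, the initiation factors outside the cap complex had 3 genes lower and 0 higher in Z100 than in XH7, and the other groups had between 0 and 4 genes lower and between 0 and 1 higher. Of all genes tested, 14.1% were called lower and 14.3% higher, so that 3 of 18 is about the share of all genes and no result about the group. GCD1, another eIF2B subunit, was lower by -0.84 ± 0.18 (adjusted p = 0.0103), DOM34, which rescues stalled ribosomes, by -1.02 ± 0.23 (adjusted p = 0.0114) and DPH6, of diphthamide synthesis, by -0.91 ± 0.16 (adjusted p = 0.00451). The calls for GCD1 and DOM34 were lost without either XH7 replicate at 30 °C, and that for DPH6 without replicate 2. The calls for SUI1, GCD2, SUP35, GLN4, MES1 and DPS1 had adjusted p between 0.0367 and 0.0479 and each was lost without either XH7 replicate at 30 °C. At 50 °C the one call in these groups outside the ribosomal proteins was FRS2, a subunit of phenylalanyl-tRNA synthetase, at -0.81 ± 0.20 (adjusted p = 0.0373), which was lost when any of 7 libraries was left out, with reference-gene scaling, with the compared groups fitted alone and with the replicate block.

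For each pair or single gene, the gene outside the 10 whose log2 CPM was most like it over the 10 libraries was sought among the 5147 genes whose mean CPM was 10 or more. Pearson's r was 0.969 for the eEF1A pair with PIS1, an enzyme of phosphatidylinositol synthesis, and 10 genes had r over 0.95 with that pair. For the eEF2 pair it was 0.998 with DPS1, aspartyl-tRNA synthetase, and 320 genes had r over 0.95. For YEF3 it was 0.999 with NIP7, a factor of ribosome synthesis, with 582 such genes.

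The eIF4A pair was most like RPS8A, a ribosomal protein gene (r = 0.998, 713 genes over 0.95), and TIF4631 most like NCL1, a tRNA methyltransferase (r = 0.999, 798 genes). CDC33 was most like GIS2 (r = 0.996, 662 genes) and PAB1 most like HIR2 (r = 0.996, 369 genes). The libraries fall into 2 temperatures that all genes share, so these values mainly rank genes by a common heat response and carry no test.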

How the data were processed

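Per the labels, RNA was isolated with TRIzol, enriched for poly(A) messages, made into libraries with an unstranded NEBNext Ultra kit and sequenced on an Illumina instrument. The authors deposited whole-number counts per gene for 10 libraries, with 51901045 to 81442848 counts each, and FPKM values. Deposited counts and FPKM together imply gene lengths of 1.0018 times the annotated ones (median over 3165 genes). Which aligner and counter were used, and what was done with reads shared by copies, is not given in the sources used here. A copy of these counts by transcript was not used, and 3 empty lines are not analysed here.

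The main test was the quasi-likelihood F test of edgeR 4.0.16 in R 4.3.3 with limma 3.58.1. It used TMM scaling, filterByExpr by group (6015 genes kept) and 1 mean for each of 4 groups over all 10 libraries. P-values were adjusted by Benjamini-Hochberg across all tested genes, with calls at adjusted p under 0.05. The biological coefficient of variation was 0.238. The SE is the size of the log2 fold change over the root of F, and intervals are 95% intervals of the model. Shares of a pair were tested by exact permutation within strains or temperatures. Sequences and positions came from the RefSeq copy of R64; BLAST 2.17.0 was used to find near-identical copies. Steps were tested on simulated data. Figures were drawn with matplotlib 3.10.9 in Python 3.11.15.

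The members and lists were chosen with earlier results of these data known. Named are the 10 genes, 6 paralogs, of each other list up to 3 called genes by size of change in each comparison, and the most alike gene of each pair or single gene. Ribosomal protein genes were taken by symbol, without RPP1, which the tables describe as an RNA processing protein. EFB1, DED1 and SBP1 were added once their values had been seen. Tried besides were DESeq2 1.42.0 and limma-voom, 4 other scalings, 2 other filters, fits of the groups compared alone, a replicate block, summed pairs and leaving out each library. When 1 library was left in a group, it was assumed to vary like the others.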

Additional observations from a re-analysis of the deposited data

Results flagged for a closer look

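The heat response of ANB1, the form of eIF5A known from low oxygen, differed between the strains by 2.01 on the log2 scale (edgeR interaction, adjusted p = 0.0187), being less negative in Z100. The adjusted p ranged up to 0.104 over the alternatives, and the call was lost without either XH7 replicate at 30 °C and without Z100 replicate 3 at 30 °C.

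The heat response of FRS2, a subunit of phenylalanyl-tRNA synthetase, differed by -1.35 (adjusted p = 0.0317), being more negative in Z100. The adjusted p ranged up to 0.212, and the call was lost when any of 7 libraries was left out (both XH7 replicates and all 3 Z100 replicates at 30 °C, XH7 replicate 1 and Z100 replicate 3 at 50 °C), with reference-gene scaling and with the replicate block.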

How the results depend on the processing

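The 8 falls in XH7 were called in every alternative run, and so were the falls of the same 8 genes in Z100. By library size alone the median of all genes moved by -0.55 with heat in XH7, -0.63 in Z100, by -0.13 for the strains compared at 30 °C and by -0.22 at 50 °C, and the share of higher among called genes went from 49.4% to 31.4% in XH7 and from 48.3% to 28.1% in Z100. At 30 °C, the members called higher in Z100 were 4 with DESeq2, 2 by library size and 3 with the compared groups alone (0 to 3 when leaving out 1 library), and those called lower were 2 with the compared groups alone (0 to 1). All genes called between strains at 30 °C numbered 3155 with the compared groups alone and 292 (without XH7 replicate 2 at 30 °C) to 2223 (without XH7 replicate 1 at 50 °C) when leaving out 1 library, against 1709. At 50 °C they numbered 1061 with DESeq2, 4 with the compared groups alone, 240 with the replicate block and 146 (without Z100 replicate 3) to 607 (without XH7 replicate 2), against 539. For the interaction they numbered 834 with DESeq2, 125 with reference genes, 152 with the block and 2 (without XH7 replicate 2 at 30 °C) to 1065 (without XH7 replicate 2 at 50 °C), against 257. Over all genes, those called higher in Z100 at 30 °C numbered 1136 with DESeq2, 630 by library size and 1551 with the compared groups alone. The cause of these shifts in number was not tested.

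Signs turned only for values that were not called. For heat in XH7 these were TEF2 at 0.11 with reference genes, and HEF3 at -0.063 by upper quartile and -0.52 by library size; in Z100 HEF3 was 0.0016 with reference genes. Between strains at 30 °C, YEF3 was -0.11 by library size and TIF2 0.038 with reference genes. At 50 °C, CDC33 was -0.051 by upper quartile, -0.23 by library size, -0.0094 with reference genes and -0.016 with the compared groups alone. The TIF2 interaction was -0.024, -0.10 and -0.12 under those 3 scalings and -0.039 with pairs summed. Leaving out 1 library gave, for heat in XH7, -0.89 to 0.15 (TEF1), -0.73 to 0.34 (TEF2) and -0.29 to 0.44 (HEF3), and in Z100 -0.24 to 0.070 (HEF3). At 30 °C it gave -0.11 to 0.16 (YEF3), -0.31 to 0.019 (TIF1) and -0.25 to 0.070 (TIF2). At 50 °C it gave -0.029 to 0.89 (TEF1), -0.077 to 0.87 (TEF2), -0.24 to 0.027 (EFT1), -0.22 to 0.040 (EFT2), -0.70 to 0.43 (TIF1), -0.41 to 0.41 (TIF2), -0.37 to 0.19 (TIF4631) and -0.31 to 0.46 (CDC33). The interaction ranged from -0.55 to 0.50 (TIF1) and -0.31 to 0.43 (TIF2).

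Replicate numbers did not pair the samples between the temperatures. Deviations of same-numbered libraries correlated there at 0.121 in XH7 and at -0.122, -0.110 and 0.145 in Z100. Between the strains, replicates 1 and 2 gave -0.107 and -0.145 at 30 °C but 0.635 and 0.529 at 50 °C. Same-numbered libraries of the 2 strains thus deviated alike at 50 °C. With 2 libraries in an XH7 group, their deviations mirror each other, so both values rest on the same XH7 contrast. They cannot show that the replicate number is what was shared, and the source was not tested. The block changed no call of the 10 genes, whereas all genes called between strains at 50 °C went from 539 to 240. With 2 libraries in each XH7 group, small differences between strains cannot be resolved.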
